A study of Gallus gallus with 21 samples.

Results

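The oldest birds of the study were hens aged 3 years (Y3) and 5 years (Y5), and the 4 libraries of these stages, 2 from each, were compared here. They were taken by their stage names out of 21 libraries in the series, each made from the cerebrum of 1 female Tibetan chicken. The other libraries came from embryos (E12, E16 and E20), growing or laying birds (D100, at 100 days, and D300, at 300 days) and hens of 1 year (Y1). The stage could be read for 18 libraries at 7 stages, and D300 was not analysed here. The hens of Y1, Y3 and Y5 came from Lhasa, whereas D100 birds were raised on a farm in Ya'an, and the labels name no treatment of the birds. According to the methods, the hens that were left were shared out between the oldest stages. With 2 birds a stage, age and the individual hens cannot be told apart, and nothing in the labels says whether the stages were collected or sequenced together. The libraries of each stage are called replicate a and replicate b, names that pair no birds across stages.

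The cerebrum holds neurons together with glia and vessels. mRNAs carry the code for proteins, whereas long non-coding RNAs (lncRNAs) are long transcripts with little or no coding capacity. Many lncRNAs are transcribed weakly and in few tissues or stages, and some act as scaffolds, guides or decoys for proteins and chromatin. In the chicken, the mitochondrial genome encodes subunits of the respiratory chain with its own rRNAs and tRNAs, and chromosome 16 carries the major histocompatibility complex and the rRNA genes.

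The deposited tables give levels of 14558 mRNAs and 39907 lncRNAs as log2(FPKM+1). FPKM counts fragments per transcript, scaled by its length and by all mapped fragments. All levels and differences below are on this scale unless FPKM is written, and a difference of 1 is a doubling of FPKM+1. The mRNAs have Ensembl identifiers only, and since 0 of these matched a gene symbol here, their functions are not given. For the same reason the labelled tissue and other cell types could not be checked by marker genes. In bulk tissue, fewer cells of a type and less RNA per cell cannot be told apart. The lncRNAs carry the TU identifiers of the study. Primers for qPCR of 10 of them are listed in the sources used here. Those of the 2 with the largest differences between Y5 and Y3 are shown, 5′ to 3′, so that these transcripts can be located:
TU178751 forward: gcccactgcagaggtttagt
TU178751 reverse: atgggtgtctgtgccatgtt
TU167089 forward: cgacagcctcattcgtccg
TU167089 reverse: cggatccgacaccttcctct

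The 2 hens of Y5 resembled each other more closely than the 2 hens of Y3 did. Across all mRNAs, Pearson's r was 0.981 between the libraries of Y5 and 0.935 between those of Y3. Y3 replicate b was nearer to both libraries of Y5 (0.946 and 0.947) than to Y3 replicate a. Y3 replicate a was nearer to Y1 replicates 1 and 2 (0.953 and 0.950) than to either library of Y5 (0.918 and 0.911). These coefficients are taken across mRNAs, which are not independent replicates, and are given as a description. In all, 264 mRNAs differed by 1 or more between the libraries of Y5, against 1475 between those of Y3 and between 1090 and 2193 in the 4 pairs of a Y3 with a Y5 library. The count for the hens of Y3 thus lay within the range of the counts between the stages. For lncRNAs the coefficients were lower throughout, with 0.771 within Y5, 0.694 within Y3 and 0.633 to 0.696 between the stages.

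**Figure D1:**
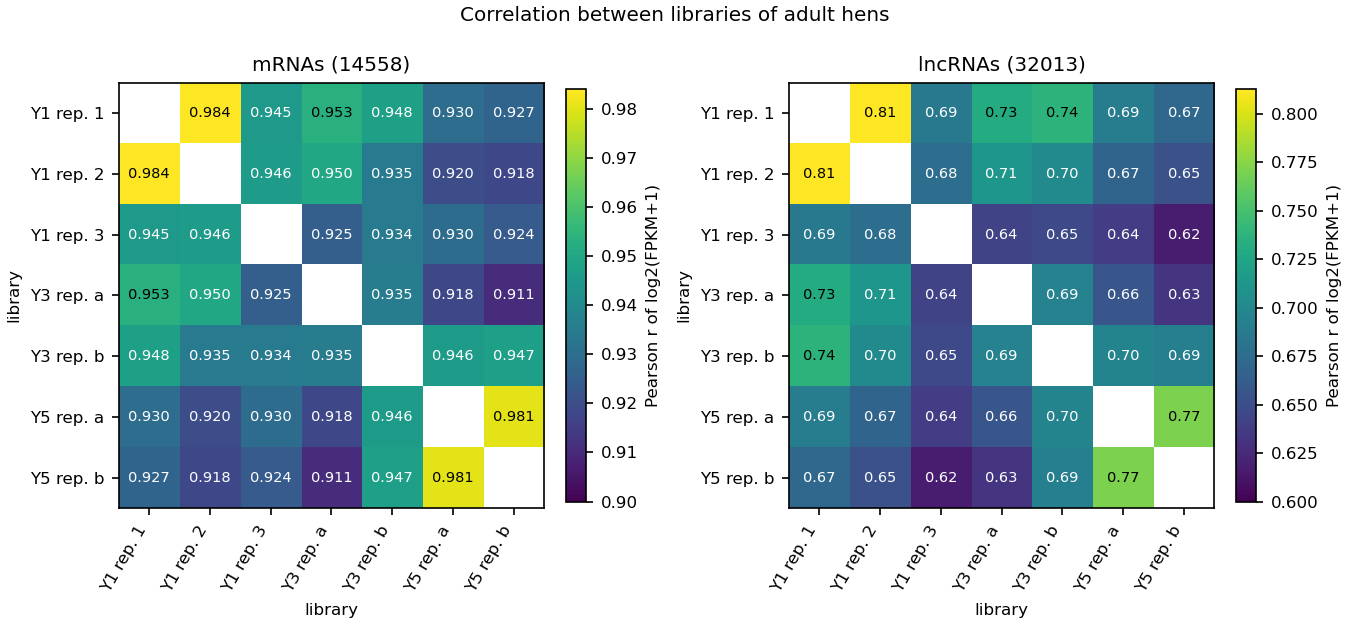
Pearson's r between each pair of the 7 libraries of adult hens, over 14558 mRNAs (left) and 32013 lncRNAs with missing values taken as 0 (right); rows and columns are libraries and the colour scale is r. The libraries of Y5 are close to each other (0.981 and 0.771), and Y3 replicate b lies nearer to Y5 than to Y3 replicate a for mRNAs.

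The median mRNA level was 3.51 and 3.54 in Y3 (replicates a and b, in this order throughout) and 3.51 in both libraries of Y5. Between 84 and 231 mRNAs were listed at 0 in these 4 libraries. The share of mRNA FPKM taken by mitochondrial transcripts was 1.52% and 4.10% in Y3 and 4.35% and 5.62% in Y5, with Y3 replicate a well below the other 3. For 2 libraries against 2, the exact two-sided permutation test cannot give a p below 0.333, which is the value found for this share. The mitochondrial share was 2.56%, 1.75% and 1.58% in Y1 and 1.07%, 1.96% and 28.8% in D100, so it could vary widely within a stage. The deposited tables hold no counts per transcript. Read totals are listed by the study for each library, but replicates a and b could not be matched to them, so no precision from depth is given for single values.

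Few mRNAs changed between Y3 and Y5 by the stricter criteria, and all that did rose. A fold change of at least 2 with a Bonferroni-adjusted p of at most 0.05 was reached by 7 of 14558 mRNAs (0.0481%) in a limma fit whose spread was estimated from the 18 libraries together. All 7 were up-regulated. No mRNA was down-regulated by these criteria. At a fold change of at least 2 and an unadjusted p of at most 0.05, 321 of the 14558 fell and 430 rose. All counts at the unadjusted p given below keep this fold threshold. With Benjamini-Hochberg adjustment in place of Bonferroni, 106 mRNAs passed (0.728%), of which 76 rose (0.522%) and 30 fell (0.206%). The median difference over all mRNAs was -0.02.

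The largest rise was that of ENSGALG00000006236 on chromosome 5 (Gallus_gallus-5.0). Its level was 0.89 and 2.74 in the libraries of Y3 and 9.35 and 9.32 in those of Y5. In FPKM these values were 0.853 and 5.69 in Y3 and 652 and 636 in Y5. Thus a transcript that was scarce in both 3-year-old hens was abundant in both 5-year-old hens, and the hens of each stage did not overlap. The difference was 7.52 ± 0.52 (SE), with a Bonferroni-adjusted p of 2.62e-06 in limma. In the 16 libraries outside Y5 its level never exceeded 2.74, the value of Y3 replicate b, with 0.79 to 2.24 in embryos and 0 to 0.61 at D100. The difference of Y5 from Y1 was 8.48 ± 0.47 (limma, Bonferroni-adjusted p = 1.16e-07), and that of Y3 from Y1 was 0.96 ± 0.47 (Benjamini-Hochberg-adjusted p = 0.555). These comparisons share the libraries of Y3 or Y5 with the first and are given side by side only.

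ENSGALG00000015970 on chromosome 3 was nearly silent outside Y5. Its level was 0.17 and 0.31 in Y3 and 3.22 and 2.74 in Y5, and no other library exceeded 0.71. The difference was 2.74 ± 0.23 (SE; limma, Bonferroni-adjusted p = 5.53e-05). Of the 7 mRNAs, this one and ENSGALG00000006236 were the only ones that passed whichever of the 4 libraries of Y3 and Y5 was left out. ENSGALG00000006236 was not called with only the 4 libraries of Y3 and Y5 in the fit (limma, Bonferroni-adjusted p = 0.338). ENSGALG00000015970 was not called in that fit (Bonferroni-adjusted p = 1 in limma), with only the adult hens (0.0781) or with a pseudocount of 0.1 (0.445).

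The other 5 called mRNAs lay on chromosomes 25, 5, 9, 11 and Z. On chromosome 25, the levels were 1.34 and 0.89 in Y3 and 5.17 and 5.44 in Y5, a difference of 4.19 ± 0.49. On chromosome 5, the second called mRNA had levels of 2.28 and 2.22 in Y3 and 6.21 and 5.98 in Y5, a difference of 3.85 ± 0.46. On chromosome 9, they were 0.47 and 1.24 in Y3 and 4.07 and 3.63 in Y5, a difference of 2.99 ± 0.37. In these, both libraries of Y5 lay above each of the other 16 libraries of the series. On chromosome 11, they were 0 and 0.70 in Y3 and 3.63 and 2.78 in Y5, a difference of 2.86 ± 0.36, again with no other library above 1.20. The mRNA of chromosome Z differed from the rest. Its levels were 1.83 and 1.79 in Y3 and 4.10 and 3.80 in Y5, a difference of 2.14 ± 0.28, but the hens of Y1 lay at 3.10 to 3.60, the embryos at 3.67 to 4.31 and D100 at 1.92 to 2.67. Here the hens of Y3 were below all other libraries, and the difference of Y5 from Y1 was 0.63 ± 0.25 (limma, Bonferroni-adjusted p = 1).

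**Figure D2:**
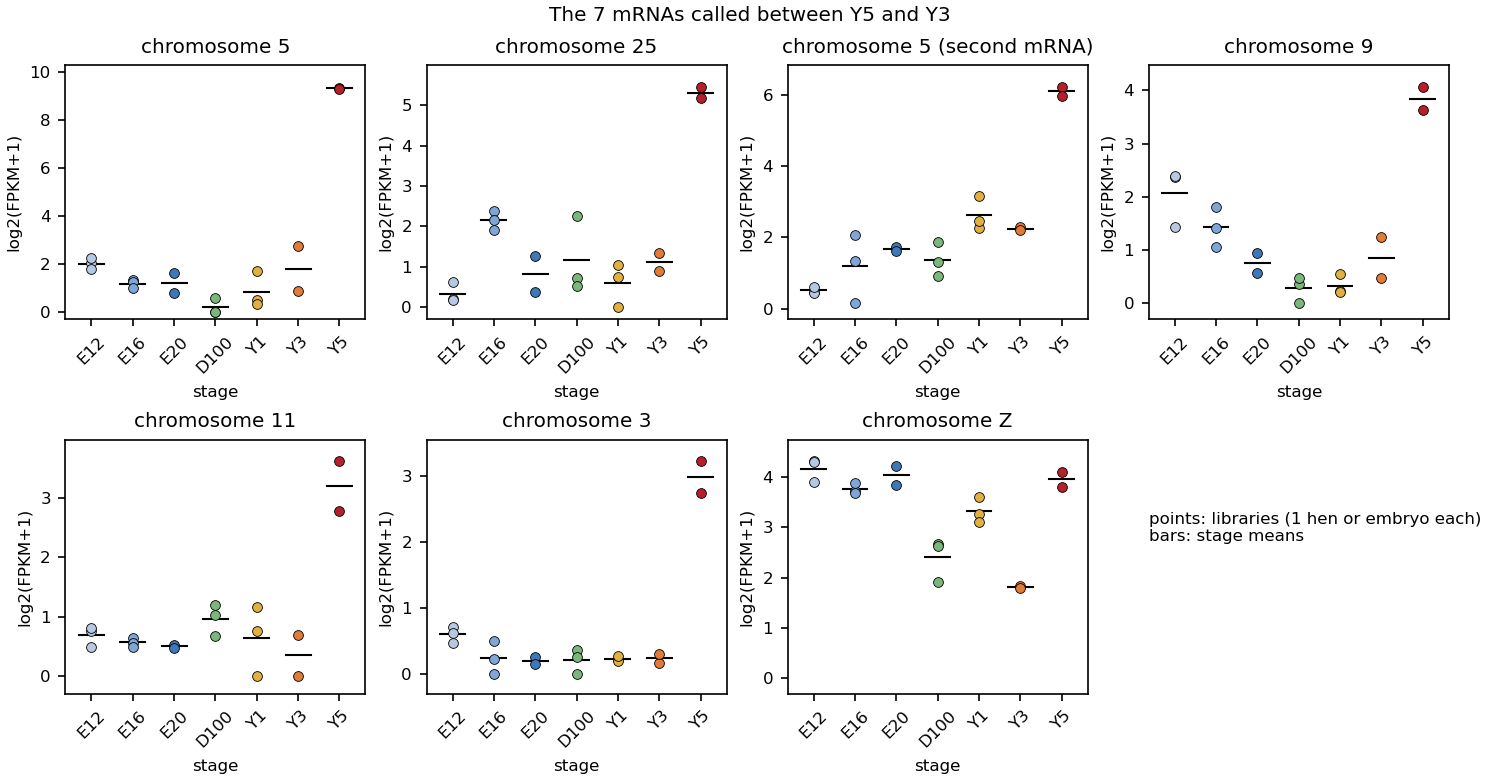
Level of the 7 called mRNAs, one panel each, in log2(FPKM+1) by stage; points are libraries and bars are stage means. In 6 panels both libraries of Y5 lie above all 16 other libraries, and on chromosome Z the libraries of Y3 (1.83 and 1.79) lie below all others.

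The count of called mRNAs moved with the libraries in the fit. With only the 4 libraries of Y3 and Y5 in the fit, 2 mRNAs were called, of which 1 was among the 7. With only the adult hens 7 were called, of which 2 were among the first 7. The counts were, without Y3 replicate a 2, without Y3 replicate b 19, and without either library of Y5 3.

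Among the 76 mRNAs that rose with Benjamini-Hochberg adjustment, differences ran from 1.00 to 7.52 with a median of 1.93, and the libraries of the stages did not overlap in any of them. Over all mRNAs, the libraries of the stages did not overlap in 51.2%, with both of Y5 above in 24.4% and below in 26.8%. The level of Y5 was the highest of the 7 stage means for 67 of the 76, compared with 2318 of all 14558 mRNAs, and in 57 both libraries of Y5 exceeded all 16 others, compared with 672 of all mRNAs. This description is partly fixed by the choice of mRNAs that were higher in Y5 than in Y3. By level, 6 were below a mean of 1 FPKM, 40 from 1 to 10 FPKM and 30 at 10 FPKM or more, beside 918, 5869 and 7771 of all mRNAs. Chromosomes 1 to 10 carried 53 of them and 8153 of all mRNAs. An mRNA of chromosome 18 missed the Bonferroni criterion narrowly, with levels of 2.89 and 1.61 in Y3, 6.87 and 6.81 in Y5, and a difference of 4.59 ± 0.65 (limma, Bonferroni-adjusted p = 0.0503). An mRNA of chromosome 17 had 3.92 and 4.70 in Y3, 8.33 and 8.31 in Y5, and 5.47 to 7.16 in the 3 hens of Y1, so that the stages of 3 and 5 years lay on either side of the 1-year-old hens.

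The 30 mRNAs that fell did so by less, from 1.04 to 1.99 on the log2 scale, and 25 of them had a mean of 10 FPKM or more. The largest fall was that of ENSGALG00000030073 on an unplaced scaffold, with 5.29 and 4.86 in Y3 and 3.12 and 3.05 in Y5. Its difference was -1.99 ± 0.39 (SE; limma, Benjamini-Hochberg-adjusted p = 0.0294). ENSGALG00000023953 on chromosome 26 followed with 3.18 and 1.67 in Y3 and 0.61 and 0.53 in Y5, a difference of -1.85 ± 0.40 (Benjamini-Hochberg-adjusted p = 0.0452 in limma). For both, the hens of the 2 stages were apart, but the fall of the second was uneven because Y3 replicate a was much the higher of its stage. For 24 of the 30, the highest of the 7 stage means was that of Y3, and for 12 the lowest was that of Y5, beside 2173 and 2269 of all mRNAs. The choice of mRNAs that were lower in Y5 fixes this in part. An mRNA of chromosome 6 was an example of the former, with 5.53 and 5.55 in Y3, 3.84 and 3.71 in Y5, 4.65 to 4.75 in Y1 and at most 3.67 in embryos and growing birds.

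Many of the largest differences were not called, and in many of them the hens of Y3 lay apart. A difference of at least 1 in either direction was found for 963 mRNAs, of which 565 were higher and 398 lower in Y5. In 302 of the 963 the libraries of Y3 were themselves apart by 1 or more, and in 180 this gap was larger than the difference between the stages. Of the 20 mRNAs that were higher in Y5 by 3 or more, 3 passed the Bonferroni and 9 the Benjamini-Hochberg criterion. In 10 of these 20, Y3 replicate b lay above Y3 replicate a by 1 or more, and in 8 of these 10, Y1 replicate 3 also lay above Y1 replicates 1 and 2 by 1 or more. ENSGALG00000006236 was one of these 8, with Y3 replicate b and Y1 replicate 3 the higher of their stages, although far below Y5. The largest difference among the rises that were not called was that of an mRNA of chromosome 2, also one of the 8. Its levels were 3.40 and 12.46 in Y3, 15.19 and 15.05 in Y5, and 4.66, 4.46 and 14.44 in Y1. In Y5 this transcript alone made up 5.54% and 5.22% of all mRNA FPKM, against 0.00154% in Y3 replicate a and 1.08% in Y3 replicate b. Its difference of 7.19 ± 3.56 did not pass (limma, Benjamini-Hochberg-adjusted p = 0.375). Similarly, an mRNA of chromosome 1 had 0.43 and 4.33 in Y3, 6.38 and 6.45 in Y5 and 0.39, 0.16 and 6.54 in Y1. In both, Y3 replicate a was near Y1 replicates 1 and 2, and Y3 replicate b was nearer to Y5. In the other direction, the largest difference was that of an mRNA of chromosome 23, with 5.59 and 7.55 in Y3 and 3.34 and 1.303 in Y5. It did not pass either (difference -4.25 ± 1.58; limma, Benjamini-Hochberg-adjusted p = 0.215).

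By position in the genome, the mitochondrial transcripts differed most as a group. Of the 30 in the table, 24 (80%) were higher in both libraries of Y5 than in both of Y3 and 0 were lower in both. Over all mRNAs, 24.4% were higher and 26.8% lower in both. The median difference of the mitochondrial transcripts was 1.23, compared with -0.02 over all mRNAs. None of the 30 passed the Benjamini-Hochberg criterion in limma, and 2 rose at the unadjusted p. Their median level was 4.80 and 7.21 in Y3 and 7.27 and 7.72 in Y5, with Y3 replicate a far below the other 3 and Y3 replicate b just under Y5 replicate a. The 29 mRNAs of chromosome 16 had a median difference of -0.39, with 9 lower (31.0%) and 5 higher (17.2%) in both libraries of Y5. None of the 29 passed in limma, where 2 fell at the unadjusted p. Their median level of 2.89 and 2.42 in Y3 and 2.62 and 2.19 in Y5 overlapped between the stages. Among 1170 mRNAs of unplaced scaffolds, 29.3% were lower and 14.8% higher in both libraries of Y5, with a median difference of -0.15. The mRNAs of chromosome Z (640, median difference 0.01) and of chromosome W (37, -0.01) had medians near 0.

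**Figure D3:**
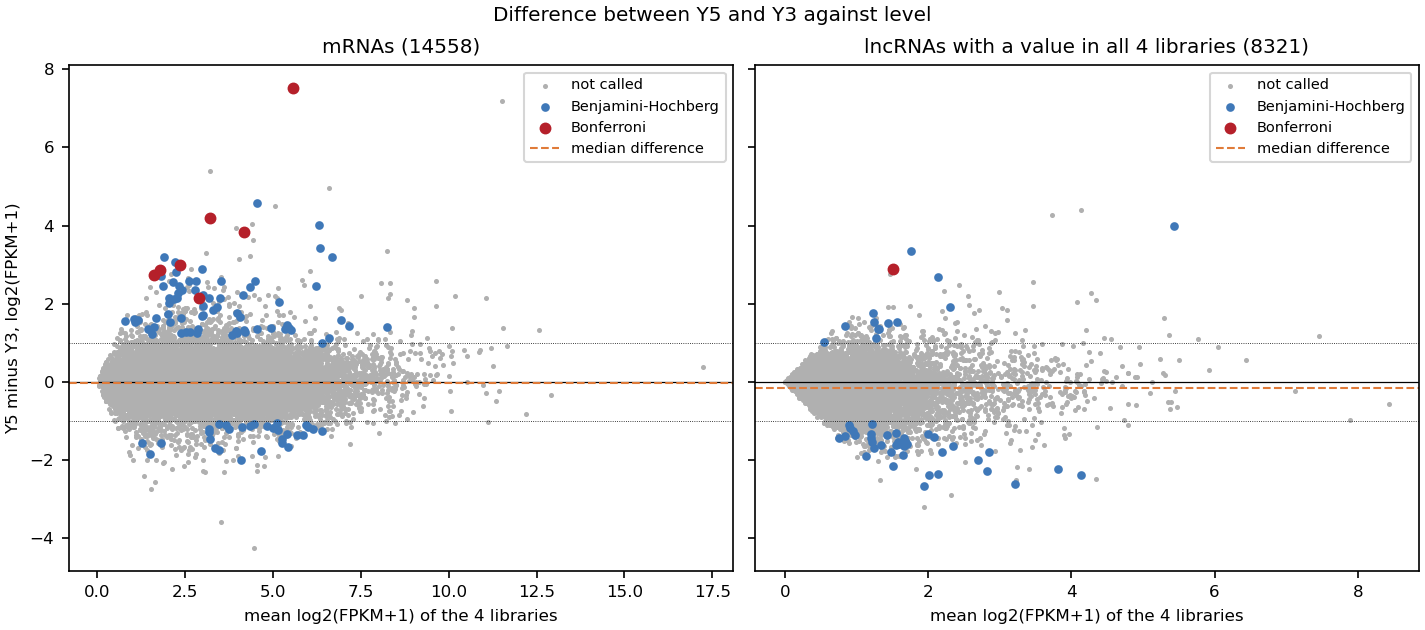
Difference of Y5 from Y3 against the mean level of the 4 libraries, both in log2(FPKM+1), for mRNAs (left) and for lncRNAs with a value in all 4 libraries (right); each point is a transcript, blue and red mark those past the Benjamini-Hochberg and the Bonferroni criterion, and the dashed line is the median difference. The median is -0.02 for mRNAs and -0.16 for lncRNAs, and the red points lie above 0 in both panels.

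Many lncRNAs had a value in only some of the 4 libraries. Values were given for 13837 and 18053 lncRNAs in Y3 and for 17315 and 16590 in Y5. Of all 39907 lncRNAs, 8321 (20.9%) had a value in all 4 libraries, 12993 (32.6%) in none, and the rest in some. No value in either library of Y3 but a value in both of Y5 was found for 1241 lncRNAs, and the opposite for 836. The same count between Y3 and pairs of the 3 libraries of Y1 gave 564 to 1406 lncRNAs that were missing in Y3. Most of the lncRNAs missing in a stage were weak. The median of their mean FPKM was 0.404 for those missing in Y3 and 0.417 for those missing in Y5, against 0.973 for the lncRNAs with a value in all 4 libraries. When only an FPKM above 1 was counted as a value, 374 lncRNAs were missing in Y3 and present in both libraries of Y5 and 809 were the opposite, so the majority changed sides. Beside this, the number of lncRNAs above 1 FPKM was 5379 and 5637 in Y3 and lower in Y5, at 4545 and 4278, and its part in the result was not tested. In Y1 this number was 5341, 5050 and 4320.

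Of the 1241 lncRNAs missing in Y3, 121 (9.75%) had a value in no library of the series other than the 2 of Y5, and 60.8% had a value in at least 1 hen of Y1. Of the 836 missing in Y5, 27 (3.23%) had a value only in the 2 libraries of Y3, and 78.8% had one in at least 1 hen of Y1. How low the level behind a missing value was cannot be read from these tables.

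**Figure D4:**
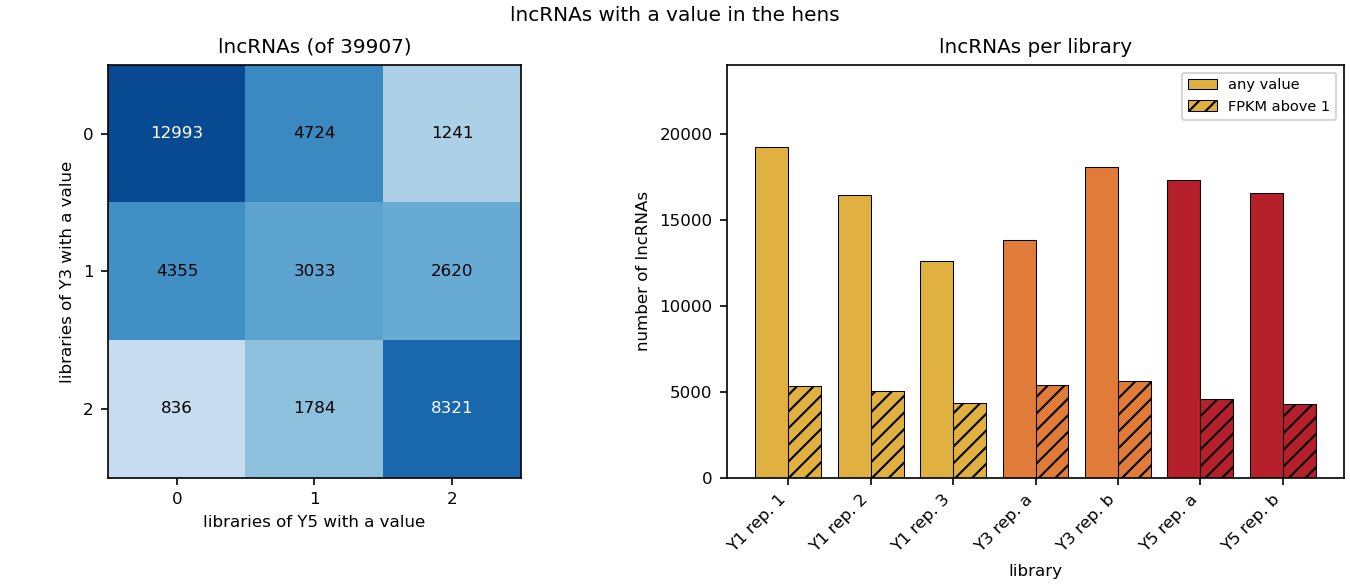
Number of lncRNAs by the number of libraries of Y3 and of Y5 that gave a value (left), and number of lncRNAs with any value (plain bars) and with an FPKM above 1 (hatched bars) in each library of the adult hens (right). In the corners of the grid, 1241 lncRNAs had values in both libraries of Y5 and neither of Y3, and 836 were the opposite, whatever the other stages gave.

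The lncRNAs were compared between the stages over the 32013 with a value in more than 1 library, with missing values taken as 0. By the stricter criteria, 33 of these (0.103%) were called, of which 29 rose (0.0906%) and 4 fell (0.0125%). They fell into 3 classes. In 24 of the 29 up-regulated lncRNAs no value was given in either library of Y3, in the 4 down-regulated lncRNAs no value was given in either library of Y5, and 5 had a value in both stages. For the first 2 classes a fold change is undefined, and levels are given instead. With Benjamini-Hochberg adjustment 175 passed (0.547%), of which 106 rose (0.331%) and 69 fell (0.216%).

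The 5 lncRNAs called with a value in both stages (0.0317% of 15758) were all up-regulated, and none fell by this criterion in limma, against 446 that fell and 248 that rose at the unadjusted p. TU166263 was the largest, with 0.79 and no value in Y3 and 4.69 and 5.28 in Y5. In FPKM this was 0.727 in Y3 replicate a and 24.8 and 37.8 in the libraries of Y5. Only D100 replicate 3 also gave a value, of 1.22. The difference was 4.59 ± 0.37 (SE; limma, Bonferroni-adjusted p = 5.62e-05). TU77523 was the only called lncRNA with a value in all 4 libraries, with 0.04 and 0.09 in Y3 and 3.14 and 2.75 in Y5, a difference of 2.88 ± 0.28 (limma, Bonferroni-adjusted p = 0.000942). It was weak in the rest of the series too, with at most 0.76. TU11426 was the most widely transcribed of the 5, with values in 14 of 18 libraries. It had no value in Y3 replicate a, 1.00 in Y3 replicate b, and 4.14 and 3.94 in Y5, while the embryos reached 2.21. TU139625 (no value and 0.52 in Y3, 2.37 and 2.41 in Y5) and TU150892 (0.12 and no value in Y3, 1.54 and 1.99 in Y5) were lower. In all 5, both hens of Y5 were above every other library. With missing values left missing in place of 0, TU77523 alone of the 5 was still called. The difference of TU166263 was then 4.196 (limma, Bonferroni-adjusted p = 1), and 1 lncRNA rose and 2 fell in all.

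The 24 lncRNAs with no value in Y3 (0.489% of the 4905 tested with a value in Y5 and none in Y3) had mean levels from 1.01 to 3.62 in Y5. TU123777 (3.30 and 3.94 in the libraries of Y5) and TU146993 (3.84 and 3.28) were the highest, the former with at most 0.08 elsewhere and the latter with no value in the 16 other libraries. In FPKM, TU123777 was at 8.88 and 14.4 and TU146993 at 13.3 and 8.74. TU169084 was higher in one hen than in the other, with 4.29 and 2.83, and had been given 1.13 in 1 library of D100. Altogether 14 of the 24 had a value in no library outside Y5, so that they entered the test only through the libraries in which they were present. TU20334, TU67462, TU8117 and TU162515 each had a value in only 1 library outside Y5. The filter asked for more than 1 library, so they too entered the test only through Y5. No other library exceeded 1.13 for any of the 24. TU136884 (1.57 and 1.48) and TU136885 (1.11 and 1.15) carry consecutive identifiers. Their positions are not given in the tables used here.

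The 4 lncRNAs with no value in Y5 (0.0906% of the 4413 tested with a value in Y3 and none in Y5) were present in both hens of Y3. TU159631 was the highest, with 2.90 and 2.35 in Y3 and 1.61, 1.40 and 1.09 in the hens of Y1. It was thus present in all 5 hens of 1 and 3 years and in neither of 5 years. TU129529 had 1.83 and 1.32 in Y3 and 0.24 in 1 hen of Y1. TU90179 and TU27149 lay between 0.90 and 1.32 in Y3. TU27149 had a value in no other library, and TU129529 and TU90179 each in only 1 other, Y1 replicate 1. The filter asked for more than 1 library, so TU27149, TU129529 and TU90179 entered the test only through the libraries of Y3.

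**Figure D5:**
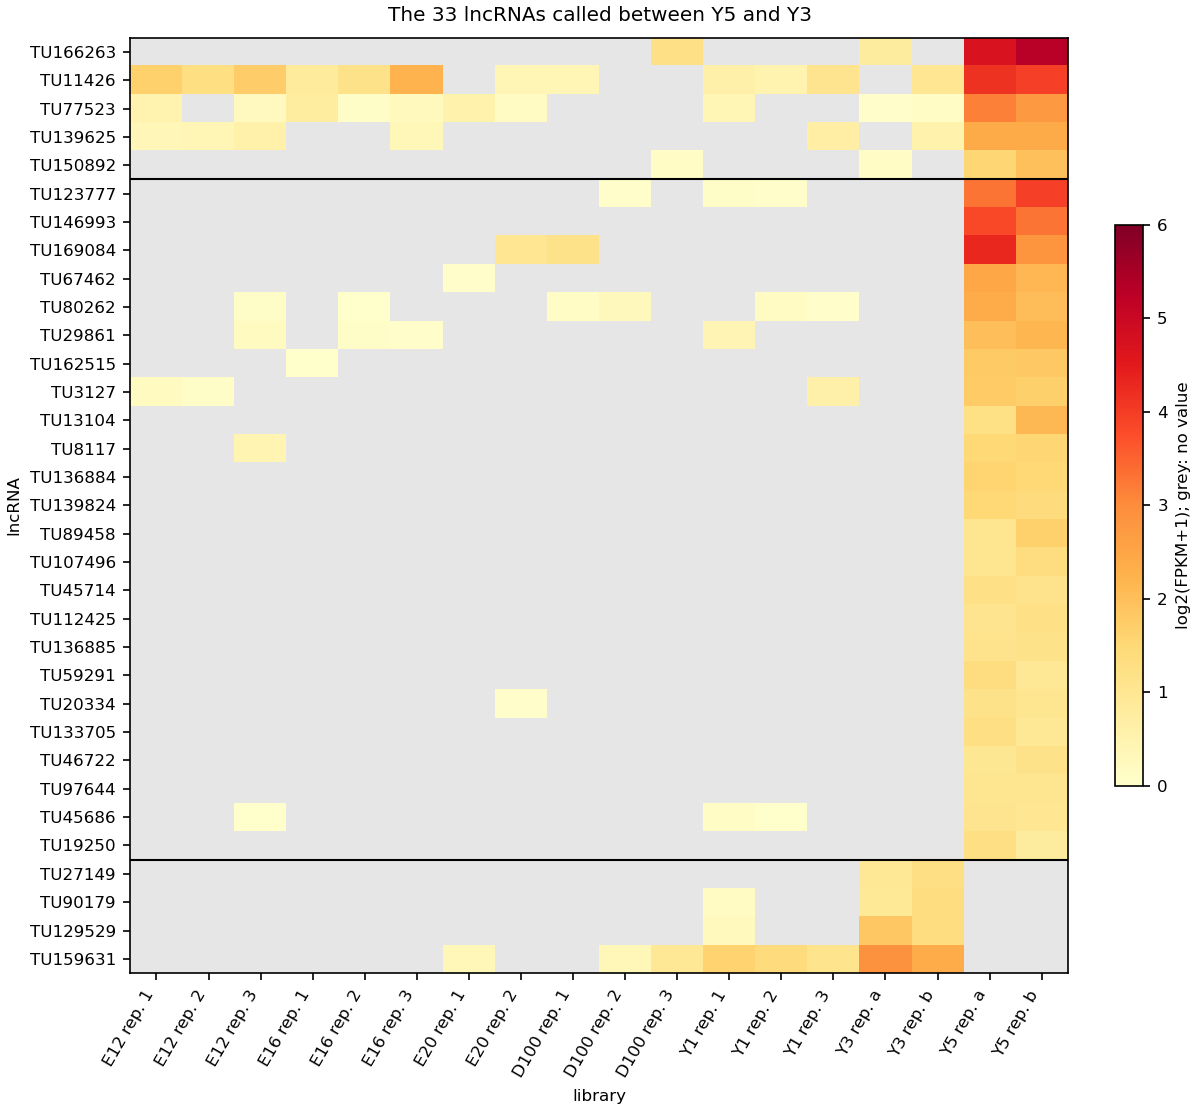
Level of the 33 called lncRNAs (rows) in the 18 libraries (columns), coloured by log2(FPKM+1), grey where no value was given; lines separate 5 lncRNAs with a value in both stages, 24 with none in Y3 and 4 with none in Y5. Colour is concentrated in the 2 columns of Y5 for the first 29 rows and in the 2 columns of Y3 for the last 4. The choice of lncRNAs called between Y5 and Y3 fixes this in part. Some rows, such as TU11426 and TU159631, also had lower values in other stages.

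These lncRNA calls moved with the libraries in the fit. With only the adult hens 1 lncRNA was called. With only the 4 libraries of Y3 and Y5 0 were called in limma, while 725 passed at the unadjusted p. In fits without 1 of the 4 libraries, a lncRNA with values only in the stage left with 1 library has no spread of its own. Its missing values entered as 0, so the counts of those fits are not comparable with the 33 called above.

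In lncRNAs with a value in all 4 libraries, falls outnumbered rises. No missing value enters the difference between Y5 and Y3 for these. Missing values in the other 14 libraries still entered the spread of the fit as 0. Of the 8321 lncRNAs, 4499 had a value in all 14 of those libraries. Of these 8321, the stages did not overlap in 45.5%, and 32.3% were lower and 13.2% higher in both libraries of Y5 than in both of Y3. Their median level was 0.99 and 1.02 in Y3 and 0.84 and 0.80 in Y5, and their median difference was -0.16. Median-ratio scaling factors of the 4 libraries, taken from the mRNAs, lay between 1.00 and 1.04. Such factors cannot show a shift between mRNAs and lncRNAs. The summed FPKM of mRNAs was 621157 and 522546 in Y3 and 677266 and 651029 in Y5. Its part in the lower lncRNA levels was not tested. Among the 4036 of these lncRNAs with a mean of 1 FPKM or more, the median difference was -0.23. With Benjamini-Hochberg adjustment, 40 fell (0.481%) and 14 rose (0.168%), and 1 passed the Bonferroni criterion (0.012%).

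Of the 14 that rose, TU166262 was the largest, with 4.65 and 2.22 in Y3 and 7.35 and 7.52 in Y5, or 162 and 183 FPKM in the latter. Its difference was 3.999 ± 0.59 (SE; limma, Benjamini-Hochberg-adjusted p = 0.0017), and the other 14 libraries lay below 2.46. Its identifier is next to that of TU166263, which rose in the same libraries. TU157618 (0.04 and 0.14 in Y3, 3.30 and 3.59 in Y5) and TU39428 (0.76 and 0.81 in Y3, 3.55 and 3.41 in Y5) followed, but each was also above 2.6 in 1 library outside Y3 and Y5. TU178770 rose from 1.02 and 1.68 to 3.28 and 3.25, above all other libraries. TU28110 had 0.66 and 0.05 in Y3 and 1.83 and 2.40 in Y5, close to the hens of Y1 (1.80 to 2.24).

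Of the 40 that fell, 38 had their highest stage mean at Y3 and 15 their lowest at Y5, beside 2425 and 1452 of the 8321. The choice of lncRNAs that were lower in Y5 fixes this in part. TU141788 showed the largest fall, with 4.18 and 2.39 in Y3 and 0.01 and 1.20 in Y5, a difference of -2.68 ± 0.58 (limma, Benjamini-Hochberg-adjusted p = 0.0326). The hens of Y1 lay close together at 3.43 to 3.62. TU156566 fell from 3.88 and 5.16 to 2.36 and 1.47, with 4.13 to 4.34 in Y1. TU103825 was more even, with 3.49 and 3.15 in Y3, 1.33 and 0.59 in Y5 and 2.31 to 2.81 in Y1. TU95519 and TU6061 were instead high in Y3. TU95519 had 2.96 and 3.46 in Y3, 1.07 and 0.58 in Y5 and 0.14 to 1.54 in Y1, and TU6061 had 3.57 and 4.36, 1.78 and 1.57, and 2.2003 to 2.85. TU167252 (5.73 and 4.93 in Y3, 2.36 and 3.53 in Y5) was the most abundant of these.

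None of the 10 lncRNAs with qPCR primers was called between Y5 and Y3, and 0 passed at an unadjusted p of at most 0.05 in limma. All 10 had a value in all 4 libraries, 7 were lower in Y5, and their median difference was -0.43, beside -0.16 over the lncRNAs with values in all 4 libraries. TU178751, whose primers are given above, had 3.76 and 5.76 in Y3 and 5.77 and 6.18 in Y5. The hens of Y5 lay above those of Y3, although Y3 replicate b was almost level with Y5 replicate a, and the difference was 1.21 ± 0.58 (limma, Benjamini-Hochberg-adjusted p = 0.447). TU167089 had 4.54 and 1.79 in Y3 and 2.43 and 0.78 in Y5, so the stages overlapped, and its difference was -1.57 ± 0.79 (limma, Benjamini-Hochberg-adjusted p = 0.482). TU38242 was lower in both hens of Y5 (2.43 and 2.62) than in those of Y3 (3.20 and 3.26), by 0.70 ± 0.36, and TU50759 as well, with 4.28 and 4.22 in Y3 and 4.01 and 2.92 in Y5. TU26292 varied most within Y5, with 4.35 and 0.795, and in TU99158 the hens of Y5 lay at 2.31 and 0.10. TU6367 was the steadiest, between 4.63 and 4.86 in all 4 hens. TU56811, TU166039 and TU45029 differed by 0.27, 0.30 and -0.15, each less than its SE.

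Beside the comparison of Y5 with Y3, the same fit gave fewer calls for Y3 against Y1 and more for Y5 against Y1. By the stricter criteria, 0 mRNAs rose and 1 fell (0.00687%) from Y1 to Y3, whereas 24 rose (0.165%) and 1 fell (0.00687%) from Y1 to Y5. With Benjamini-Hochberg adjustment 7 passed from Y1 to Y3 (0.0481%; 3 rose, 0.0206%, and 4 fell, 0.0275%) and 391 from Y1 to Y5 (2.69%; 252 rose, 1.73%, and 139 fell, 0.955%). For lncRNAs, 3 rose and 2 fell from Y1 to Y3, and 39 rose and 2 fell from Y1 to Y5 (0.0156% and 0.128% in all, with 0.00937% and 0.122% rising and 0.00625% falling in each). These comparisons share libraries, their difference was not tested, and Y1 has 3 libraries.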

How the data were processed

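The authors removed rRNA from total RNA, sequenced stranded paired-end libraries, mapped reads with HISAT2 to Gallus_gallus-5.0 and assembled them with StringTie (1.3.3). They deposited log2 values, log2(FPKM+1) per mRNA and lncRNA. Of the value columns of each, 3 name no stage and were not used. Whether counting used strand is not given in the sources used here, so overlapping and antisense transcripts may share reads. The levels were analysed as deposited with limma (3.58.1, R 4.3.3): 7 stage means over 18 libraries, eBayes with a trend, the contrast of Y5 with Y3, Bonferroni and Benjamini-Hochberg adjustment over all transcripts tested. A call needed a fold change of at least 2 and an adjusted p of at most 0.05. A lncRNA without a value entered as 0 (58.8% of lncRNA values in the 4 libraries have none). SEs are those of the fit. Pearson's r, exact permutation tests (SciPy) and counts were computed in Python, and the fit was tested on simulated data. The simulated data held no missing values, so they do not cover lncRNAs missing in a whole stage. Named transcripts were all calls, the largest rises and falls past Benjamini-Hochberg with libraries apart, and the qPCR lncRNAs. The mRNAs with differences of 3 or more that passed no adjustment, and ENSGALG00000015970 as one of the printed identifiers, were chosen after their values were seen. At most 2 identifiers that rose and 2 that fell are printed for mRNAs, since none has a symbol here. Lists of genes and cell markers could not be used for the same reason. The comparison, lists and tests were chosen with earlier results of these data known. Alternatives were another adjustment, fold threshold, set of libraries, pseudocount (0.1), filter, scaling, treatment of missing values, a replicate block, and leaving out each library. P-values measure the spread between single birds within stages. For lncRNAs with many missing values, that spread is set in part by the zeros that stand for them.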

Additional observations from a re-analysis of the deposited data

How the results depend on the processing

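By the stricter criteria 7 mRNAs, 33 lncRNAs and, among the lncRNAs with a value in both stages, 5 were called. The counts, in this order, were 106, 175 and 87 with Benjamini-Hochberg adjustment. They were 751, 940 and 694 at the unadjusted p, with the fold threshold of 2 kept. With only the 4 libraries of Y3 and Y5 they were 2, 0 and 0 (809 mRNAs and 725 lncRNAs at the unadjusted p), and with a pseudocount of 0.1 they were 2, 48 and 0. With only the adult hens they were 7 (5 rose and 2 fell), 1 and 0. Of the 7 mRNAs first called, 1 was called with the 4 libraries, 2 with the adult hens and 2 with the pseudocount of 0.1. A fold threshold of 1.5 gave 59 lncRNAs, a mean FPKM of at least 1 gave 5 lncRNAs, and median-ratio scaling gave 12 mRNAs. Without the filter on the number of libraries, 24 of the 28 called lncRNAs that were missing in a stage were still called. Their values and zeros were the same in that fit, so this count does not test how they entered. With only the adult hens, or only the 4 libraries of Y3 and Y5, 0 of the 28 were called. Median-ratio scaling moved the median mRNA difference by 0.03. With missing lncRNA values left missing, 3 lncRNAs were called, 1 rising and 2 falling. In the first fit, with missing values taken as 0, 1 of the called lncRNAs had a value in all 4 libraries. Leaving out 1 library at a time gave 2 to 19 mRNAs, 101 to 117 lncRNAs and 15 to 32 with a value in both stages. Without a library of Y3 the lncRNA calls were mostly falls, and without a library of Y5 they were all rises. A lncRNA with values only in the stage left with 1 library has no spread of its own, since its missing values entered as 0. The part of this in the counts was not tested. The lone library is then assumed to vary like those of the other stages. With only an FPKM above 1 as a value, 374 in place of 1241 lncRNAs were missing in Y3 and present in both libraries of Y5.

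The replicate block, with the number that ends the deposited name of each of the 18 libraries as a term, gave 6, 23 and 5 calls. Deviations from the stage means of same-lettered libraries correlated at 0.13 for mRNAs and 0.03 for lncRNAs, and the numbers pair no birds. Over 93 transcripts, those named and all mRNAs with differences of 3 or more, the direction reversed under the alternatives run for 4 qPCR lncRNAs that were not called: with 1 library left out, TU99158 ran from -1.86 to 0.35 (without Y5 replicate b), TU26292 from -2.58 to 0.98 (without Y5 replicate b, and 0.13 without Y3 replicate b), TU45029 from -0.60 to 0.30 (without Y3 replicate a) and TU6367 from -0.20 to 0.0030 (without Y3 replicate a). Of the other differences under each alternative, 821 kept direction and side of the Bonferroni threshold, 185 lost the threshold and 9 gained it. The 821 include transcripts not called in the first fit, which could not lose the threshold. Calls kept with median-ratio scaling were 7 of 7 mRNAs, 27 of 28 lncRNAs missing in a stage and 5 of 5 other lncRNAs. With only the adult hens they were 2, 0 and 0. No counts per transcript were at hand, and 2 hens a stage limit every value.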
